A study of Xenopus laevis with 20 samples.

Results

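The β-catenin peaks described here lay apart from the Smad1 and p300 sites of the study. They were the peaks of the explant β-catenin list that overlapped no Smad1 peak and no p300 peak by even 1 bp and had none of these within 10 kb, measured from edge to edge on the same sequence. This rule chose 6131 of the 16303 β-catenin peaks (37.6%, exact 95% interval 36.9 to 38.4), out of 43980 distinct peaks in the 4 lists of the study. They are called isolated peaks below. Because they were chosen from overlaps and distances, their lack of Smad1 and p300 and their distances are a description, and no test was made on them. Height, background and the spacing of β-catenin peaks among themselves were not used to choose them. Width was no criterion either, but it enters through the edges, because a wider peak reaches another list more easily.

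The study applied chromatin immunoprecipitation followed by sequencing (ChIP-seq) to wild-type Xenopus laevis embryos at Nieuwkoop-Faber stage 20, in 10 ChIP libraries and 10 inputs, with 1 library for each combination of antibody, tissue and treatment. β-catenin was profiled in 4 libraries, from foregut explants and from hindgut explants, each with DMSO vehicle or with 60 μM BIO, an inhibitor of the kinase GSK3, applied from stage 12 to stage 20. p300 was profiled in the same 4 kinds of explant, and p300 and Smad1 also in whole embryos, for which the labels give no treatment. The sample titles read Smad1 but the peak names of that list read pSmad1. A lack of Smad1 peaks may therefore apply only to the phosphorylated form. The peak names show that the β-catenin list pooled foregut with hindgut and DMSO with BIO, so every isolated peak has 1 value over tissue and treatment. BIO-treated explants are part of that pool. The title of the list names IDR, a reproducibility filter, but no source at hand says how it was applied. Which of the 4 libraries, and how many of them, a peak came from is therefore unknown.

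β-catenin turns canonical Wnt signals into changes in transcription. When the pathway is off, GSK3 marks it for destruction, and when the pathway is on, or GSK3 is inhibited, it enters the nucleus and is carried to DNA by partners, chiefly TCF and LEF proteins. Smad1 is the DNA-binding effector of BMP signalling. p300 is a histone acetyltransferase that is widely used to map active enhancers. In the gut tube, Wnt and BMP signals are known to help set posterior against anterior endoderm. An isolated peak is therefore a place where β-catenin was mapped with no listed peak of the BMP effector and no listed peak of this enhancer mark nearby. This holds as far as the depth, thresholds and tissues of the other lists reach. Smad1 was profiled only in whole embryos, so its binding at these sites in foregut or hindgut explants, with DMSO or BIO, was not measured. No gene could be named at any of these positions, because no source at hand states the genome build of the lists.

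Isolation was one end of a continuous range of distances. Of the 9006 β-catenin peaks that overlapped no other list, 461 (5.12%, exact 95% interval 4.67 to 5.59) had another list's peak within 1 kb, 2875 (31.9%, interval 31.0 to 32.9) within 10 kb and 6809 (75.6%, interval 74.7 to 76.5) within 100 kb. The 2875 peaks are called nearby peaks below, and the 7297 that overlapped another list overlapping peaks. Peaks lay on both sides of the limit without a gap. The isolated peaks closest to it were 10002, 10034 and 10038 bp from another list, on chromosome 9_10S, Scaffold44 and chromosome 6S, with folds of 9.45, 7.07 and 12.9. The nearby peaks closest to it were at 9999, 9998 and 9997 bp, on chromosomes 8L, 4L and 7L, with folds of 17.0, 13.8 and 12.1.

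**Figure D1:**
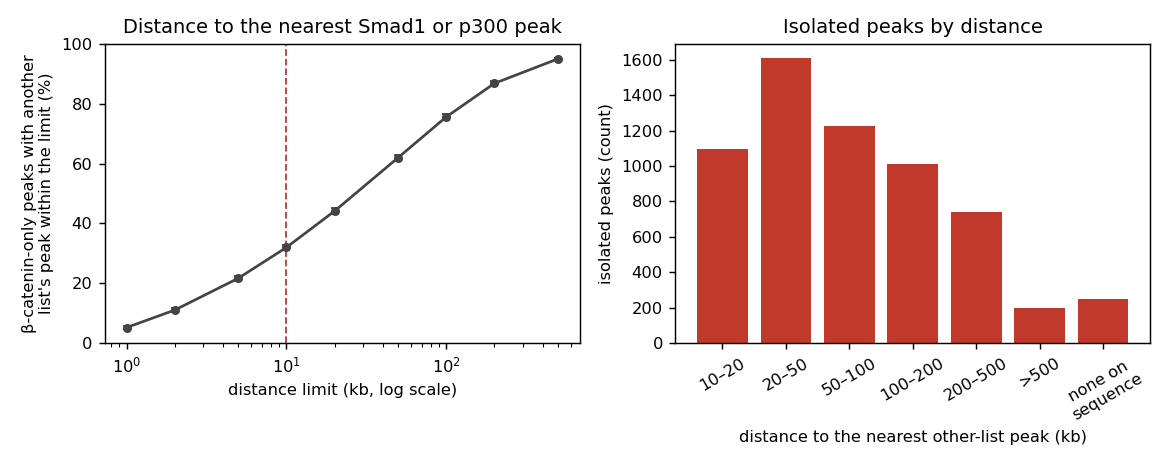
Left, share of the 9006 β-catenin-only peaks with a Smad1 or p300 peak within each distance limit (log axis in kb), with exact 95% intervals and the 10 kb limit dashed; right, number of isolated peaks by distance to the nearest such peak. The curve passes the 10 kb limit, at 31.9%, without a step, and most isolated peaks lay between 10 and 200 kb from another list.

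Most isolated peaks were far beyond the limit. Among the 5881 with any other-list peak on their sequence, the nearest was at a median of 57.2 kb, with quartiles of 24.8 and 137.4 kb. The nearest site was an explant p300 peak for 3944 of them (67.1%), a Smad1 peak for 1476 (25.1%) and a whole-embryo p300 peak for 461 (7.84%). The lists differ in length, which sets such shares in part. Taken list by list, the median distance was 73.3 kb to explant p300, 139.7 kb to Smad1 and 230.1 kb to whole-embryo p300. The most remote isolated peak on a named chromosome, on 6L from 77710352 to 77710779, was 2470 kb from any other list. The others most remote were on 1L from 299205 to 299478, at 2440 kb, and again on 6L from 80328338 to 80328767, at 1836 kb. The 3 were 428, 274 and 430 bp wide, where all isolated peaks had a median of 469 bp and quartiles of 373 and 605 bp. Their folds lay between 8.92 and 14.2. They were also far from other β-catenin peaks, with the nearest at 1765, 3179 and 1133 kb. By score they ranked 14701, 15685 and 4658 in the β-catenin list. The 1L peak had 39 fragments and a background of 6.86, both the lowest values in that list.

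The remaining 250 isolated peaks were on sequences with no Smad1 or p300 peak at all, and these were unplaced scaffolds in each case. Scaffolds are stretches that the assembly could not join to a chromosome, and a short one cannot hold a partner 10 kb away. In all, 490 isolated peaks (7.99%, exact 95% interval 7.33 to 8.70) were on 304 scaffolds, against 4.24% (interval 3.54 to 5.05) of nearby and 5.58% (interval 5.06 to 6.13) of overlapping peaks. The peaks without any partner on the sequence had a median width of 369 bp, against 473 bp on named chromosomes. A start at the first base of the sequence was seen at 107 isolated peaks (1.75%, interval 1.43 to 2.11). This was so at 0.0348% of nearby, 0.480% of overlapping and 0.877% of all β-catenin peaks. The part that scaffold length plays in the isolation of these 250 was not tested. The 5641 isolated peaks on named chromosomes do not have this limit.

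The fold and p-value of a peak together gave the data behind it. MACS2 computes the fold as the ChIP pileup plus 1 over the local background plus 1, and the p-value from the Poisson tail at that pileup. Solving these relations for each peak gave ChIP pileups that were whole multiples of 2.62, to within 0.001 of a multiple, at all 16303 peaks. Each multiple is taken as 1 sequenced fragment at the summit, pooled over the libraries. The local background is the highest of several estimates from the control. It came out as a whole number, a multiple of 0.0149 (to within 0.1 of that step) or a fixed lowest value of 6.86, which are the steps that control reads extended to 149 bp give in windows of up to 10 kb. Depth per library is unknown, but the fragments give each peak a counting error. Fragments are given below as counts before the scaling by 2.62, while the background is on the scale of the pileup. A count must be multiplied by 2.62 before it can be set against the background to give the fold.

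Isolated peaks had fewer ChIP fragments than the other β-catenin peaks and also less background. The median isolated peak had 62 fragments at its summit (quartiles 52 and 79), nearby peaks 66 (57 and 84) and overlapping peaks 78 (63 and 105). Counts of this size carry a sizeable counting error. The isolated peak at 10002 bp from its neighbour, with 50 fragments, has an exact Poisson 95% interval of 37.1 to 65.9. The local background, on the scale of the pileup, had a median of 12 (quartiles 10 and 15) at isolated peaks, 14.8 (12 and 17.6) at nearby peaks and 16.5 (14 and 20) at overlapping peaks. The distributions overlapped broadly. The exact 95% intervals of the medians of nearby and overlapping peaks, 14.5 to 15 and 16.2 to 17.0, did not reach the median of isolated peaks, but they cover only the number of peaks. There is 1 list and no replicate list, so no test of these differences across samples was possible.

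**Figure D2:**
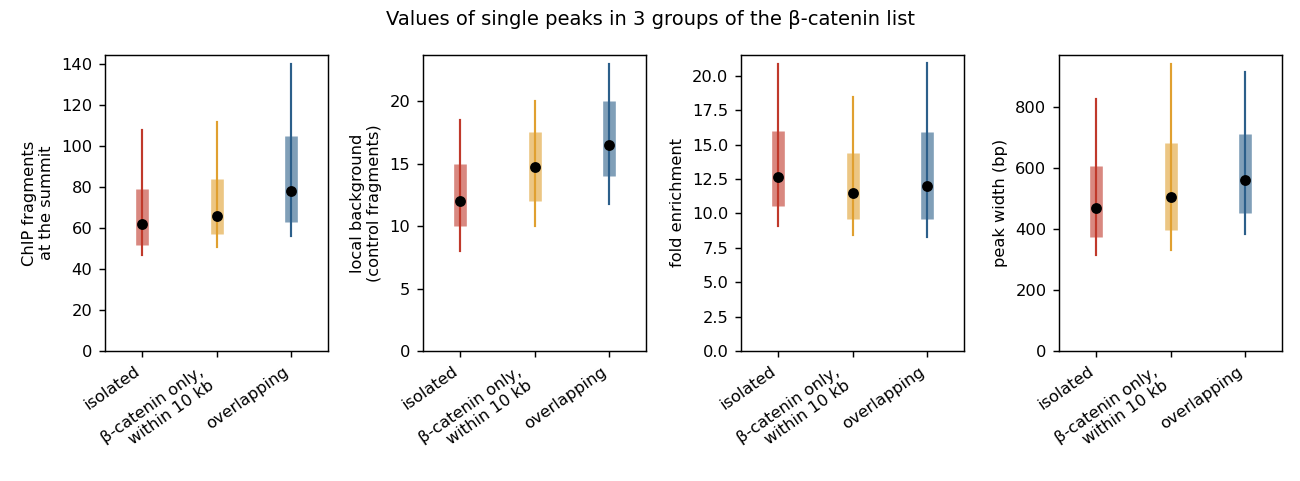
Values of single peaks for the 6131 isolated, 2875 nearby and 7297 overlapping β-catenin peaks: ChIP fragments at the summit (before the scaling by 2.62), local background in control fragments, fold enrichment and width in bp. Points are medians, thick bars run from the lower to the upper quartile and thin lines from the 10th to the 90th percentile; fragments, background and width were lowest at isolated peaks and the fold was highest there.

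With the lower background, the fold enrichment of isolated peaks, taken over all peaks, was the highest of the 3 groups although their score was low. Their median fold was 12.6 (exact 95% interval 12.5 to 12.7, quartiles 10.5 and 16.0), against 11.5 (interval 11.3 to 11.6) for nearby and 11.99 (interval 11.9 to 12.1) for overlapping peaks. The score, which is 10 times the −log10 p-value and therefore grows with depth at a site, had a median of 1169 for isolated, 1178 for nearby and 1445 for overlapping peaks. Isolated peaks were also the narrowest, with a median of 469 bp against 506 and 559 bp. Of them, 430 (7.01%, interval 6.39 to 7.68) were under 300 bp wide, against 4.10% (interval 3.41 to 4.90) of nearby and 1.21% (interval 0.968 to 1.48) of overlapping peaks. The summit lay close to the midpoint (within 0.1 of the width) in 57.6% (interval 56.3 to 58.8) of isolated, 53.1% (interval 51.3 to 54.95) of nearby and 55.8% (interval 54.6 to 56.9) of overlapping peaks.

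Very low backgrounds were more frequent at isolated peaks. The background was under 10 at 1496 of them (24.4%, exact 95% interval 23.3 to 25.5), at 8.31% (interval 7.33 to 9.38) of nearby peaks and at 3.54% (interval 3.12 to 3.99) of overlapping peaks. It stood at the genome-wide floor of 6.86, where no nearby control window exceeded the average, at 191 isolated peaks (3.12%, interval 2.69 to 3.58), 20 nearby peaks (0.696%, interval 0.425 to 1.07) and 12 overlapping peaks (0.164%, interval 0.0850 to 0.287). Control reads under the summit itself set the background at 62.7% of isolated, 60.5% of nearby and 67.3% of overlapping peaks.

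The background also fell as the distance to other lists grew. Isolated peaks between 10 and 20 kb from another list had a median background of 13.0 and a median fold of 11.96 (n = 1096). Between 50 and 100 kb these were 12 and 12.6 (n = 1227), and beyond 500 kb they were 10 and 13.5 (n = 197). Peaks at the floor made up 0.639% of the first of these groups, 2.69% of the second and 6.60% of the third. The median number of ChIP fragments went from 64.5 to 63 and 58, and the score had no such order, with medians of 1170, 1186 and 1141. Fragments and background are linked here too by the weakest p-value at which the list ends. The rule acted on the same distance, so the trend describes the members and was not tested.

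When peaks of similar score were set side by side, isolated peaks still had the lowest background. The β-catenin list was divided into 10 deciles by score, and in 10 of 10 the median background was lower in isolated than in nearby and in overlapping peaks. In the highest decile it was 13.0 for isolated, 15.9 for nearby and 17.6 for overlapping peaks, with median folds of 26.6, 24.5 and 22.2 and median widths of 597, 632 and 715 bp. In the lowest decile the backgrounds were 11.6, 14.6 and 16, with folds of 9.97, 8.82 and 8.44 and widths of 407, 431 and 454 bp. Isolated peaks were the narrowest in 10 of 10 deciles, although width is linked to the rule through the peak edges. At a fixed score, a lower background gives a higher fold by construction, so fold and background are not independent measures here. With the list divided by background instead, isolated peaks had a lower median fold than overlapping peaks in each decile. It was 8.02 against 9.91 where the background was highest and 15.1 against 16.1 where it was lowest. Median fragments were lower as well, at 87 against 96 and 51 against 56.5. Compared with nearby peaks the fold went both ways, at 8.02 against 8.95 and 15.1 against 14.8.

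**Figure D3:**
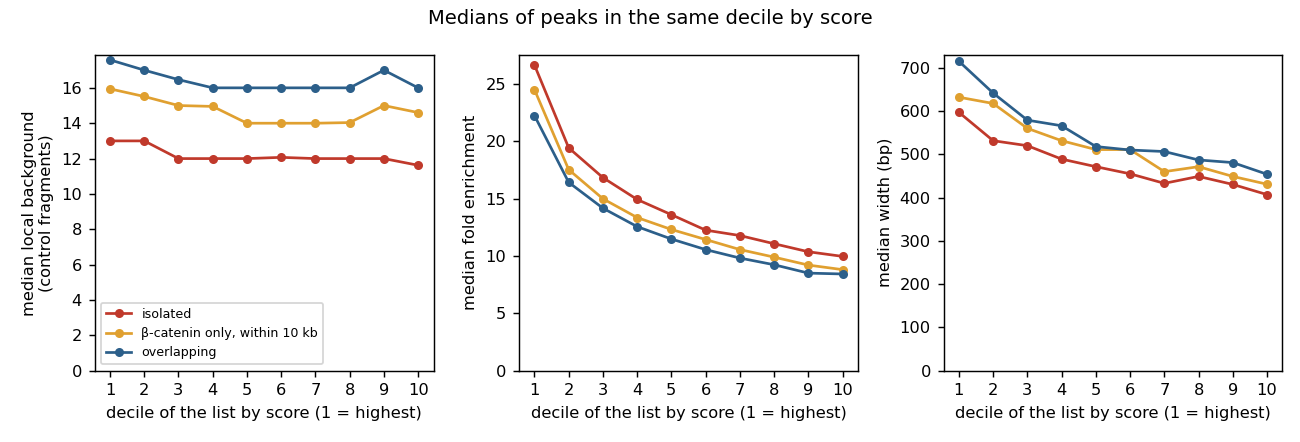
Median local background (control fragments), median fold enrichment and median width (bp) of isolated, nearby and overlapping β-catenin peaks in each decile of the list by score, with decile 1 the highest. The red points of the isolated peaks are the lowest for background and width and the highest for fold in all 10 deciles.

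Isolated peaks were found along the whole β-catenin list and were more frequent toward its lower end by score. They made up 420 of the 1630 peaks in the highest decile (25.8%, exact 95% interval 23.7 to 28.0) and 775 of the 1631 in the lowest (47.5%, interval 45.1 to 49.97), around a share of 37.6% in the whole list. Among the 1000 highest scores the share was 25.6% (interval 22.9 to 28.4) and among the 500 highest 23.2% (interval 19.6 to 27.2), both below that of the whole list. This was not particular to isolated peaks. Nearby peaks, 17.6% of the whole list, were 112 of the 1000 and 58 of the 500 highest scores, and overlapping peaks were 632 and 326. In the smallest cuts, 28 of the 100 highest scores were isolated (28%, interval 19.5 to 37.9) and 18 of the 50 highest (36%, interval 22.9 to 50.8). Both intervals include the shares of the highest decile and of the whole list. They cover counting alone, the cuts are parts of that decile and list, and no difference was tested. The 28 had a median of 215 fragments (before scaling), a median background of 13.0 and a median fold of 41.2. The 56 overlapping peaks among the same 100 had medians of 240.5 fragments, a background of 18.3 and a fold of 31.7.

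Ranking by fold reversed the order of the highest and lowest deciles, but the share did not change evenly between them. It was highest in deciles 5 and 6, at 44.5% (exact 95% interval 42.1 to 46.99) and 44.2% (interval 41.8 to 46.7). Isolated peaks were 31 of the 50 highest folds (62%, exact 95% interval 47.2 to 75.3), 59 of the 100 highest (59%, interval 48.7 to 68.7), 40.5% (interval 38.1 to 42.9) of the highest decile and 23.2% (interval 21.2 to 25.4) of the lowest decile. Ranking by background separated them most. Of the 1630 peaks with the highest background 302 were isolated (18.5%, interval 16.7 to 20.5), and of the 1631 with the lowest background 1272 were (78.0%, interval 75.9 to 80.0). Whether isolated sites had more or less than their share of the highest-ranked β-catenin sites therefore depended on whether the fold or the score was used.

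**Figure D4:**
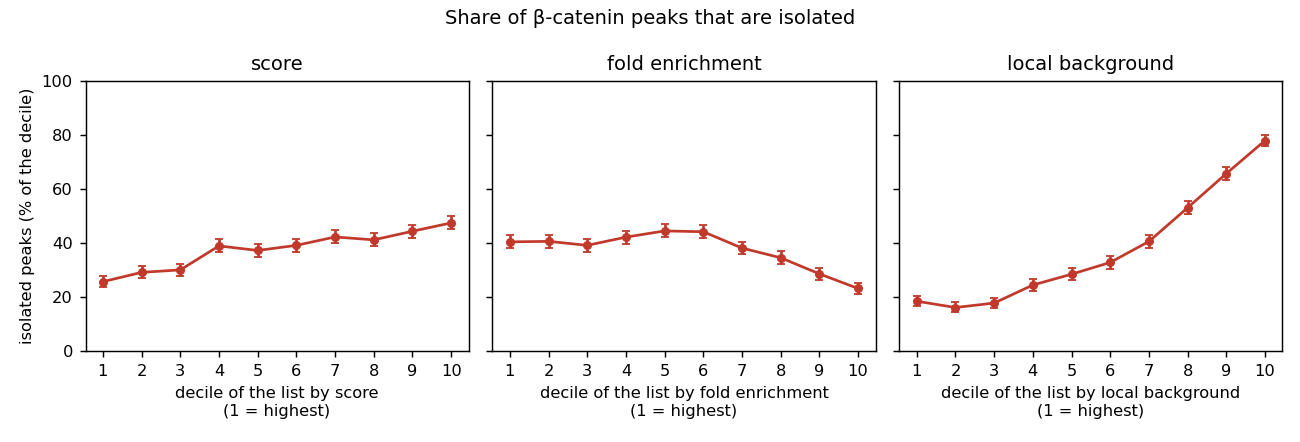
Share of β-catenin peaks that were isolated in each decile of the list, ordered by score, by fold enrichment and by local background, with exact 95% intervals; decile 1 holds the highest values. The share went from 25.8% in the highest to 47.5% in the lowest decile by score, and reached 78.0% where the background was lowest. By fold it was 40.5% in the highest decile, 44.5% in decile 5 and 23.2% in the lowest.

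The 10 isolated peaks with the highest scores ranked from 6 to 26 in the whole list. They held between 209 and 280 fragments over backgrounds of 7.30 to 21 and had folds of 32.4 to 66.5. The first was on chromosome 3L from 38436075 to 38437130, with 280 fragments (exact Poisson 95% interval 248.2 to 314.8), a background of 21 and 33.5-fold enrichment. Its nearest other-list site was an explant p300 peak 322.1 kb away. The second, on 4L from 4189893 to 4190627, had almost the same height (275 fragments, interval 243.5 to 309.5, 34.4-fold), but an explant p300 peak at 10.3 kb, just beyond the limit. Each count lies within the Poisson interval of the other, but these intervals take no account of the ceiling on counts described below.

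The site with the highest fold of all 16303 β-catenin peaks was isolated. It lay on chromosome 1S from 111926002 to 111926738, with 210 fragments (interval 182.6 to 240.4) over a background of 7.30, close to the floor, and 66.5-fold enrichment. Explant p300 was 26.2 kb away, whole-embryo p300 31.1 kb and Smad1 52.8 kb. Next in fold among isolated peaks were chromosome 4S from 23073141 to 23076911 (57.8-fold, 202 fragments) and Scaffold44 from 1266393 to 1267195 (56.2-fold, 225 fragments, interval 196.6 to 256.4). The 4S peak was 3771 bp wide, which is far above the median of 469 bp, and its nearest β-catenin neighbour was 156.7 kb away.

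Others with high scores were the 5S site from 108967969 to 108968943 (50.7-fold, 235 fragments), 7S from 70596160 to 70596938 (54.96-fold, 209 fragments) and 8S from 35356106 to 35357618 (49.7-fold, 227 fragments). The 8S peak had another β-catenin peak 2.52 kb away, while the 7S peak had none within 242.2 kb. Chromosomes 1L from 43966272 to 43966993, 8L from 2603004 to 2603748 and 2S from 121467401 to 121468110 carried peaks of 42.5-fold, 42.8-fold and 32.4-fold. At the 1L peak all 3 other lists had a peak at nearly the same distance, 43.0 kb for whole-embryo p300 and Smad1 and 43.1 kb for explant p300. At the 2S peak Smad1 was 110.4 kb, explant p300 123.2 kb and whole-embryo p300 1103 kb away.

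Strong isolated peaks were found on each of the 18 named chromosomes. The highest-scoring one of each had a fold of at least 31.0, the value on 6L from 38231729 to 38232774, and at least 179 fragments, the count on 9_10S from 38367970 to 38369248 (34.8-fold). On 5L from 36355562 to 36356637 the fold was 33.6 with 243 fragments, and on 6S from 74791556 to 74792228 it was 41.2 with 226. On 7L from 96441923 to 96442853 it was 39.8, on 9_10L from 50810212 to 50811158 it was 35.8, on 2L from 7924311 to 7924998 it was 37.2 and on 3S from 3451749 to 3452678 it was 31.9. By rank in the whole list these leaders ran from 6, on 3L, to 217, on 9_10S. At the other end of the list, the isolated peaks with the lowest scores had 53, 46 and 39 fragments, on 2L from 2465604 to 2465902, 1L from 127677975 to 127678407 and 6L from 6394232 to 6394726, with folds of 8.13, 9.96 and 12.6. The last of these passed on 39 fragments because its background was 7.21.

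The fragment counts of the strongest peaks approached a ceiling. With reads extended to 149 bp and 1 read kept per position and strand, the MACS2 default, no base can be covered by more than 298 fragments, and the highest count in the list was 297. No source at hand gives the setting that the authors used. Counts over 250 were found at 13 isolated peaks and 38 β-catenin peaks in all. The Poisson intervals of single peaks take no account of such a ceiling. Those of the highest-scoring isolated peaks on 3L and 4L, with upper ends of 314.8 and 309.5, run past it. For counts this high they do not measure the error well. The part of this ceiling in the order of the strongest sites was not tested.

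A small set of isolated peaks had a very high background and a low fold. There were 23 with a background over 50 (0.375%, exact 95% interval 0.238 to 0.562). Of nearby peaks 2 had such a background (0.0696%, interval 0.00843 to 0.251), and of overlapping peaks 10 (0.137%, interval 0.0657 to 0.252). In the whole β-catenin list the share was 0.215%. The backgrounds of the 23 isolated peaks ran from 51 to 296 and their folds from 2.57 to 6.45. Of the 23, 15 were on scaffolds, 14 on a sequence with no other-list peak, and 11 began at the first base of the scaffold. The widest isolated peak was one of them, on Scaffold555 from 1 to 7296, with 297 fragments over a background of 287.4 and a fold of 2.71, and so was Scaffold944 from 1 to 3798, with 295 over 296 and 2.61-fold. The other of the 3 widest was an ordinary one, on 1S from 54815991 to 54820176, 4186 bp wide, with 128 fragments over 20. All 6 β-catenin peaks with 290 or more fragments were isolated and had backgrounds of at least 283. ChIP and control were both near the ceiling there, and the folds, 2.61 to 2.72, were close to the 2.62 by which the ChIP pileup had been scaled. Leaving the 23 out left the median fragments at 62 and the median background at 12.

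Isolated peaks were spaced more widely from other β-catenin peaks as well, a feature the rule did not use directly. The nearest other β-catenin peak was a median of 45.8 kb away (quartiles 14.5 and 128.6 kb, n = 5879), compared with 4.91 kb for nearby peaks (n = 2870) and 8.26 kb for overlapping peaks (n = 7182). A β-catenin neighbour within 10 kb was present at 1066 isolated peaks (17.4%, exact 95% interval 16.4 to 18.4), 69.01% (interval 67.3 to 70.7) of nearby and 53.0% (interval 51.9 to 54.2) of overlapping peaks. β-catenin and the other lists share many sites, so a lack of other-list peaks removes β-catenin peaks at those sites too, and the 2 distances are linked. On 252 isolated peaks' sequences there was no other β-catenin peak at all.

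Some isolated peaks lay close to each other. Of the 1066 with a β-catenin neighbour within 10 kb, 980 (91.9%) had an isolated peak within that distance and 86 had only peaks of the other groups. The rule largely fixes this split, because a β-catenin neighbour at or near a Smad1 or p300 peak usually brings that peak within 10 kb as well. Chained at gaps of up to 10 kb, the 980 formed 447 clusters, of which 379 were pairs and 54 held 3 peaks. The other 5151 isolated peaks (84.0%) had no further isolated peak within 10 kb, although 86 of them had a β-catenin peak of another group there. The largest cluster had 6 peaks within 18282 bp on chromosome 6L from 37007885 to 37026166, with folds of 8.76 to 13.6 and 53 to 100 fragments, 144.1 kb from any other list. Clusters of 5 lay on 9_10L from 68103082 to 68125121, with folds of 11.4 to 19.2, and on 6L from 13113387 to 13130551, with folds of 9.01 to 21.4. The first of these was 12.5 kb and the second 228.7 kb from another list.

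Isolated peaks were spread over all chromosomes, in shares that differed between some of them. They made up between 29.9% (exact 95% interval 26.0 to 34.0), on 7S, and 42.5% (interval 38.9 to 46.1), on 2S, of the β-catenin peaks of a chromosome, and 48.1% (interval 44.98 to 51.2) on scaffolds. Xenopus laevis is an allotetraploid whose chromosomes come in pairs of a longer (L) and a shorter (S) form. The isolated share was higher on the S copy in 7 of 9 pairs. The widest of these differences was on pair 2, with 35.3% on L and 42.5% on S, and the exceptions were pair 5 (39.1% on L, 37.9% on S) and pair 7 (34.4% on L, 29.9% on S). Of isolated peaks on named chromosomes, 58.3% (interval 57.0 to 59.6) were on L copies, against 61.2% (interval 59.4 to 63.0) of nearby and 60.5% (interval 59.3 to 61.6) of overlapping peaks. Median fold (12.5 on L, 12.7 on S), fragments (63 and 62) and background (12.1 and 12) of isolated peaks differed between the copies by less than the distance between the quartiles of single peaks. That distance does not measure the error of a median, and these differences were not tested.

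**Figure D5:**
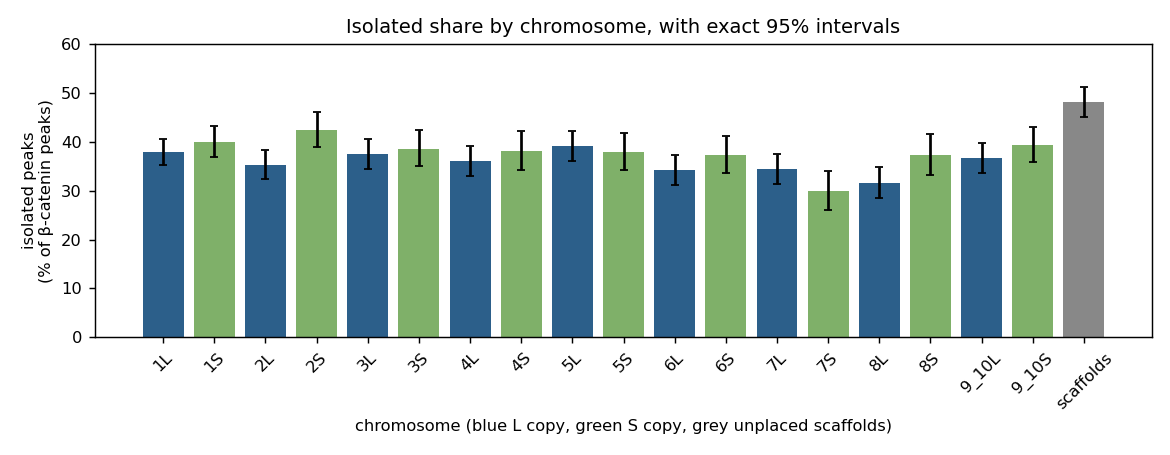
Isolated peaks as a percentage of the β-catenin peaks of each chromosome (blue L copies, green S copies) and of unplaced scaffolds (grey), with exact 95% intervals. The lowest share was 29.9% on 7S and the highest on a chromosome 42.5% on 2S. Most intervals overlapped, but those of 7S and 2S did not.

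Along the chromosomes, the share of isolated peaks varied unevenly and was highest in the last part. In 10 equal parts of the span from the first base to the last peak, pooled over the chromosomes, their share of β-catenin peaks ran from 33.2% (exact 95% interval 30.9 to 35.6) in the ninth part to 41.2% (interval 38.8 to 43.7) in the last part, with 37.7% in the first. Parts 4 and 5, toward the middle, had 39.8% (interval 37.3 to 42.3) and 39.7% (interval 37.0 to 42.4), with intervals that overlapped that of the last part. Among isolated peaks, fragments and background rose together (Spearman's rho 0.480 across 6131 peaks of 1 pooled list), fold and background ran opposite (rho −0.497), and score and background were almost unrelated (rho 0.0870). Fold and score derive from the same fragments and background, so these values describe how the measures are built as well as the peaks. The list also ends at a score of 786, so a peak with a higher background enters only with more fragments. The 3 isolated peaks with the lowest scores had 53, 46 and 39 fragments at backgrounds of 16.2, 11.2 and 7.21. The rho of 0.480 therefore cannot be read apart from this limit.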

How the data were processed

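The submitters' processing notes list MACS2, Bowtie2, SAMtools, Picard, Trimmomatic and FastQC, with no version or role. The 4 deposited peak lists hold for each peak a score, a fold (a ratio of ChIP pileup over background) and the −log10 of a p-value, by their column layout. The names of β-catenin, Smad1 and explant p300 peaks in the deposited files describe pooled libraries called against a control, and the titles of these lists name IDR, a reproducibility filter. The title of the whole-embryo p300 list names no IDR. That list has 4727 lines with 4555 distinct intervals, and 14 of its lines give no summit. No source at hand states the genome build or the depth of a library. A RefSeq gene table at hand reached over 1 Mb past the last peak on 18 of 18 chromosomes and was not used for positions.

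Distances were counted in bases between peak edges, and a shared base counted as an overlap. Fragments and background were solved from the fold and −log10 p of each peak. At 15 peaks with 2 solutions, the one nearer a whole multiple was kept. Both steps were tested on simulated data. Shares have exact (Clopper-Pearson) 95% intervals, medians exact binomial ones and single peaks exact Poisson ones, and these reflect counting alone. No peak is a replicate of another, so no test was made. Python 3.11.15, numpy 2.4.6, pandas 2.3.3 and scipy 1.17.1 were used. The members, the division of the list and the named peaks (the 10 highest scores, the extremes of fold, width, score and distance, the largest clusters and the leader of each chromosome) were chosen with earlier results of these data known. The recovery of fragments and the set with high background were added after the lists were seen. The planned search for TCF/LEF and SMAD motifs and start sites needs a genome of the same build and was not run.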

Additional observations from a re-analysis of the deposited data

How the results depend on the processing

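Of 58 alternatives, 34 stayed within 1.5 times the count of peaks or within the interval of the share or median, and 24 did not. The number of isolated peaks was 3424 with a 50 kb limit. It was 8575, against 6131, when only the higher-scoring 50% of each Smad1 or p300 list was kept, so membership depends on the thresholds of those lists. In the other alternatives it ran from 5035 to 7059. The median fold was 12.8 at 20 kb, 12.97 at 50 kb and 16.6 in the higher-scoring 50% of the β-catenin list, where the median width was 513 bp and the median score 1760. At 50 kb the median width was 462 bp, the median fragments 61 and the median background 11.4; at 5 kb the background was 12.2. The last 2 measures and their alternatives were chosen after seeing the data. The isolated share of the 100 highest peaks was 59% when ranked by fold. That of the highest decile was 29.8%, 21.3% and 14.7% at 5, 20 and 50 kb and 40.5% by fold. That of the lowest decile was 53.4%, 38.5% and 26.7% at these limits and 23.3% by fold, so ranking by fold reversed the order of the highest and lowest deciles. The share on scaffolds was 9.04% at 20 kb and 11.5% at 50 kb. A β-catenin neighbour was within 5, 20 and 50 kb at 11.3%, 30.0% and 49.9% of isolated peaks. At limits of 5, 20 and 50 kb isolated peaks had lower median background, fragments and width and a higher median fold than nearby peaks, as at 10 kb. No paired analysis was possible because each list is 1 call set over pooled libraries and no result comes from a test across samples.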
